A study of Rattus norvegicus with 18 samples.

Results

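The genes that activate aristolochic acid and carry it into cells were followed through 18 rat expression arrays. Members were chosen by name, as the 9 genes Nqo1, Por, Cyp1a1, Cyp1a2, Cyp1b1, Xdh, Sult1a1, Slc22a6 and Slc22a8, and every probe set whose only platform gene symbol was one of these names was read. They made up 9 of 14217 genes on the array and 11 of 31099 probe sets. The samples were cultures of NRK-52E, an established epithelial line from the kidney of Osborne-Mendel rats that the labels call proximal tubular. The 6 groups, of 3 arrays each, were confluent cells given 1.65 µM aristolochic acid (AA) in 0.1% DMSO for 6, 24 or 72 h (AA 6 h, AA 24 h, AA 72 h) and cells given 0.1% DMSO alone for the same times (DMSO 6 h, DMSO 24 h, DMSO 72 h). The dose was chosen by the submitters as the 10% inhibitory concentration at 72 h, and all groups were grown with serum and antibiotics. The 3 samples within each group are labelled as biological replicates from separate studies, with no plate or day named, so p-values reflect the spread among them only.

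Aristolochic acid is a nitrophenanthrene from Aristolochia plants that injures the proximal tubule and causes urothelial cancer. Its nitro group must be reduced inside the cell before it can bind DNA. Cytosolic NQO1, and to a lesser degree microsomal CYP1A1, CYP1A2 and POR, carry out this reduction, xanthine oxidase can do so too, and SULT1A1 has been described as making the hydroxylated product more reactive by sulfonation. The CYP1A enzymes also remove a methyl group from AA, which makes it less toxic. Entry into proximal tubule cells is attributed to the organic anion transporters OAT1 (Slc22a6) and OAT3 (Slc22a8). CYP1 genes are classical targets of the aryl hydrocarbon receptor (AhR), and Nqo1 is a classical target of both AhR and NRF2, the transcription factor of the oxidative stress response.

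All values are log2 expression after GCRMA, which corrects background by probe sequence, and a value under log2 4 was treated as near the floor of the method. Over all arrays, 49.4% of probe sets other than controls had a mean under log2 4. By this mark, 4 member probe sets were at or above log2 4 on every array, namely those of Nqo1 and Xdh and both of Por. The Cyp1b1 probe set was at or above it on 10 of 18 arrays. The other 6, of Cyp1a1, Cyp1a2, Sult1a1, Slc22a6 and Slc22a8 (a pair of probe sets), were under it on all 18 arrays. RNA for the reductases was therefore detected, and RNA for both uptake carriers, for CYP1A1 and CYP1A2 and for SULT1A1 was not detectable above the floor in any group. Nothing can be said from such values about protein or about transport.

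**Figure D1:**
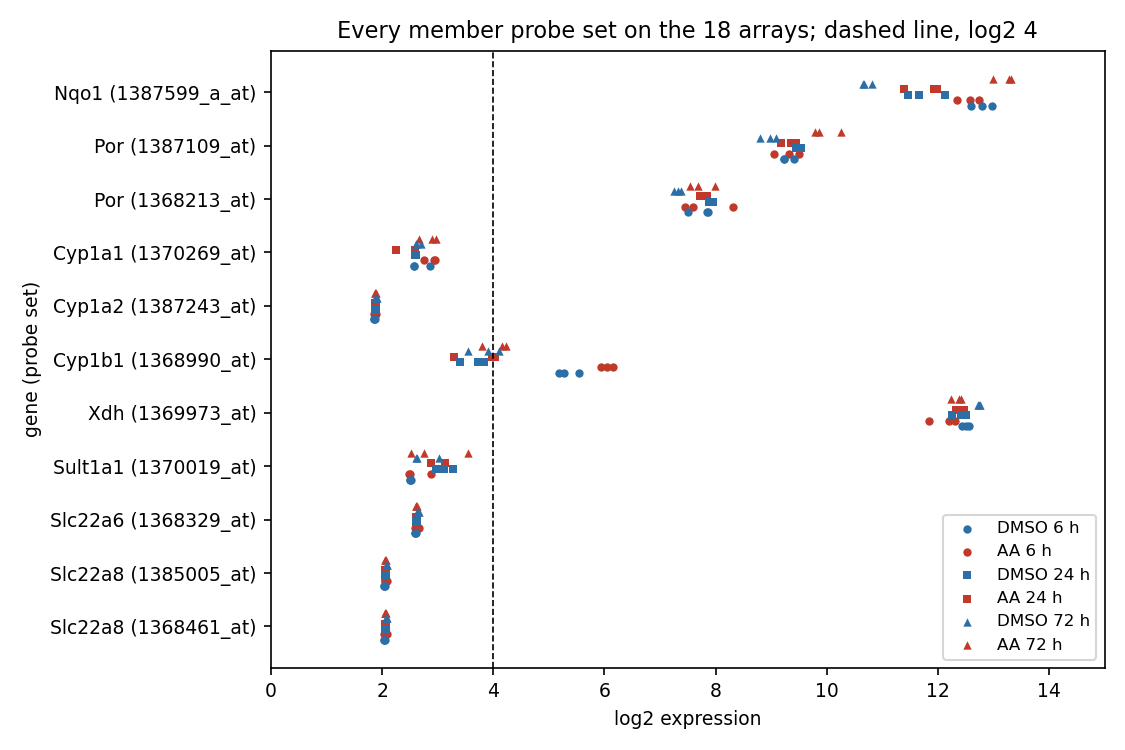
Log2 expression of the 11 member probe sets on the 18 arrays (x axis, log2; y axis, gene and probe set; each point is 1 array, coloured by treatment and shaped by time; dashed line at log2 4). Nqo1, Por and Xdh lay right of the line on every array, Cyp1b1 straddled it, and the other 6 probe sets lay left of it throughout.

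The label of a proximal tubular line was checked against its markers. Of 17 proximal tubule markers, 4 had a mean over log2 4 (Aqp1, Ggt1, Slc4a4 and Gatm). The defining endocytic receptors Lrp2 and Cubn had means of 2.31 and 1.95, the sodium carriers Slc5a2 and Slc34a1 means of 2.29 and 2.27, and the organic cation carrier Slc22a2 a mean of 2.19, all at the floor. Of 10 epithelial markers, Krt8 (13.57) and Ocln (5.42) were above log2 4 and Cdh1 (2.57) was not, while 4 of 9 fibroblast markers (Col1a1, Col1a2, Col3a1 and Postn) were above it. No loop, distal tubule or collecting duct marker (0 of 10) and no hepatocyte marker (0 of 5) was, and 1 of 6 immune markers (Cd14) and 1 of 5 endothelial markers (Tek) were. Within groups, pairs of replicate arrays had r of 0.996 to 0.999 over all probe sets.

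Promoter windows are shown for the 2 members that were higher in AA at 72 h, Nqo1 and Por, and for Cyp1b1, the member that was higher at 6 h. They come from RefSeq for assembly GRCr8 and run 5′ to 3′ along the gene from 250 bases before the annotated start to 50 bases after it, at chr19:52220218-52220517 on the minus strand for Nqo1, chr12:26635760-26636059 on the minus strand for Por and chr6:21094315-21094614 on the plus strand for Cyp1b1. Capitals mark GCGTG, the core of the AhR response element, read on either strand (CACGC where it lies on the other strand).
Nqo1: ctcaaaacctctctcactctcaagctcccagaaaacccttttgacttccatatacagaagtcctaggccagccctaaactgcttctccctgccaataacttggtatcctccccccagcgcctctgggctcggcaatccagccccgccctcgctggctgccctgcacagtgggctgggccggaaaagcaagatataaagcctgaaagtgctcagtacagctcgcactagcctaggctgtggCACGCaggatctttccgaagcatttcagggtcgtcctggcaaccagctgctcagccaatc
Por: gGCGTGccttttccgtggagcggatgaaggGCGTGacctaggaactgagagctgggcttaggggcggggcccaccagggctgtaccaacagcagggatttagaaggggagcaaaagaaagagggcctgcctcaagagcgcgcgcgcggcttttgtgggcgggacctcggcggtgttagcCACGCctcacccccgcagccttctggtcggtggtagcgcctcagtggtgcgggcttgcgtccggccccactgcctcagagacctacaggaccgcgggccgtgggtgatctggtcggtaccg
Cyp1b1: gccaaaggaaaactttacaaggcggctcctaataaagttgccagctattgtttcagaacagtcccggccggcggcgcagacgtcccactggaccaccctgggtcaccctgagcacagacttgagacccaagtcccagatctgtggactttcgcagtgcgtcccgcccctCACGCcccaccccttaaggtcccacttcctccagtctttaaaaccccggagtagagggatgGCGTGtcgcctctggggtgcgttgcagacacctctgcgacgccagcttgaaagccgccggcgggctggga
GCGTG occurred 1 time in the Nqo1 window, 3 times in that of Por and 2 times in that of Cyp1b1. It occurred 0 times in the windows of Cyp1a2, Xdh, Sult1a1 and Slc22a8. It is a common string, found in 29.7% of 33469 promoter windows of this length. The core of the antioxidant response element that NRF2 binds, TGACNNNGC, occurred in 12.1% of windows and in 0 of the 7 member windows. No window was read for Cyp1a1 or Slc22a6. These matches describe letters in a short window and no binding was measured.

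The genes measured above the floor were tested with limma, fitted to all 18 arrays as 6 group means, with Benjamini-Hochberg adjustment over 9015 genes and adjusted p under 0.05 as the threshold. A gene was tested if log2 4 or more was reached on at least 3 arrays, and 4 of the 9 members qualified (Nqo1, Por, Cyp1b1 and Xdh). In AA against DMSO of the same age, 1 of the 4 was higher and 1 lower at 6 h, where 24.5% of all genes were called, and 0 were called at 24 h (0 also at an unadjusted p under 0.05), where 2.09% were. At 72 h, 2 were higher and 1 lower, where 47.2% of all genes were called. With nearly 1 gene in 2 called at 72 h, a called member at that time is not unusual in itself. Of all genes called at 72 h, 2472 were higher and 1785 lower.

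NQO1 reduces quinones and nitro compounds with NADH or NADPH and is the main cytosolic enzyme of AA reduction. In DMSO its level read 12.98, 12.80 and 12.59 at 6 h, 12.12, 11.66 and 11.46 at 24 h and 10.67, 10.65 and 10.81 at 72 h. In AA it read 12.35, 12.58 and 12.74 at 6 h, 11.40, 11.98 and 11.93 at 24 h and 12.99, 13.32 and 13.28 at 72 h. The treated and solvent arrays overlapped at 6 h and 24 h, and at 72 h every AA array lay above every DMSO array and above all arrays of the other groups. The log2 fold change of AA over DMSO at 72 h was 2.49 ± 0.16 (SE, 95% interval 2.15 to 2.82, n = 3 arrays a group), or 5.6-fold, with limma adjusted p 2.2e-10. At 6 h it was -0.23 ± 0.16 (adjusted p 0.306), and at 24 h it was 0.02 with an interval from -0.32 to 0.36 (adjusted p 0.987).

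The 72 h difference in Nqo1 had a fall in the controls and a rise in the treated cells within it. In DMSO, Nqo1 fell by 1.04 from 6 h to 24 h (adjusted p 1.74e-05) and by 1.04 again from 24 h to 72 h (5.93e-05). In AA it fell by 0.79 from 6 h to 24 h (0.000398) and then rose by 1.43 from 24 h to 72 h (4.99e-07, 2.69-fold), where 52.5% and 52.7% of all genes were called in the respective comparisons. From highest to lowest, the group means were 13.20 ± 0.18 (SD) in AA 72 h, 12.79 ± 0.20 in DMSO 6 h, 12.56 ± 0.20 in AA 6 h, 11.77 ± 0.32 in AA 24 h, 11.75 ± 0.34 in DMSO 24 h and 10.71 ± 0.09 in DMSO 72 h. The arrays of DMSO 6 h and AA 6 h overlapped, as did those of AA 24 h and DMSO 24 h, and the other neighbours in this order did not overlap. The lowest AA 72 h array (12.99) and the highest DMSO 6 h array (12.98) almost touched.

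POR hands electrons from NADPH to all microsomal P450 enzymes and can itself reduce nitro groups. On the probe set with the higher mean, which stands for the gene, the DMSO arrays read 9.24, 9.24 and 9.42 at 6 h, 9.53, 9.45 and 9.48 at 24 h and 8.98, 9.08 and 8.80 at 72 h. The AA arrays read 9.06, 9.32 and 9.50 at 6 h, 9.17, 9.36 and 9.45 at 24 h and 9.79, 10.25 and 9.87 at 72 h. All AA 72 h arrays were above every other array of this probe set, and the 3 DMSO 72 h arrays included its lowest values. Por was higher in AA at 72 h by 1.01 ± 0.13 (SE, interval 0.75 to 1.28), or 2.02-fold, with adjusted p 2.03e-06. The differences at 6 h (-0.004, adjusted p 0.986) and 24 h (-0.16, adjusted p 0.732) did not pass. As with Nqo1, the controls fell from 24 h to 72 h, by 0.53 (0.00287), and the treated cells rose, by 0.64 (0.000292). From DMSO 6 h to DMSO 24 h Por differed by 0.19 (adjusted p 0.213), and between AA 6 h and AA 24 h by 0.03 (0.844).

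The second Por probe set gave a smaller difference. It read 7.32, 7.25 and 7.38 in DMSO 72 h and 7.54, 7.99 and 7.68 in AA 72 h, so the arrays again did not overlap. Its log2 fold change was 0.42 (interval 0.05 to 0.80), and with adjustment over the 16253 probe sets tested one by one (adjusted p 0.0637) it did not pass, where 44.5% of probe sets did. It had the fall in DMSO from 24 h to 72 h, of 0.60 (0.0146, with 35.2% of probe sets called), while its mean in AA was 7.78 ± 0.07 at 24 h and 7.74 ± 0.23 at 72 h. Its differences at 6 h (0.04, adjusted p 0.89) and 24 h (-0.13, 0.88) did not pass, where 21.4% and 1.43% of probe sets did. Thus the higher level against controls of the same age passed the test only on the probe set with the higher mean. The rise in AA between 24 h and 72 h was likewise seen on that probe set only. With the mean of both probe sets as the gene's value, the 72 h difference was 0.72 and still passed, and the rise in AA from 24 h to 72 h was 0.30 (adjusted p 0.0855).

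**Figure D2:**
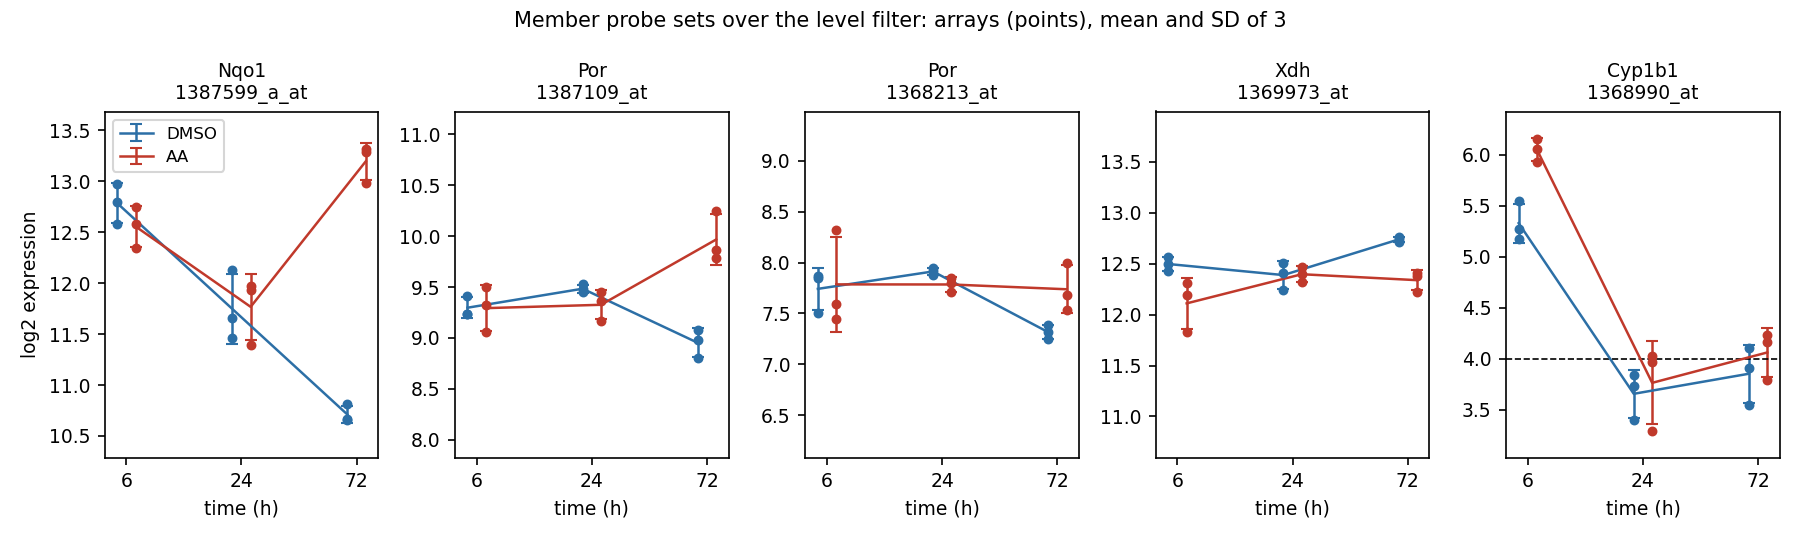
Log2 expression (y axis) against time in h (x axis, the 3 times evenly spaced) for the 5 member probe sets over the filter; points are arrays, lines join group means, bars are the SD of 3 arrays, and every panel spans the same log2 range. Nqo1 in DMSO (blue) stepped down from 12.79 to 10.71 while AA (red) ended at 13.20, and Cyp1b1 dropped between 6 h and 24 h in both.

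XDH is the molybdenum enzyme that oxidises hypoxanthine and xanthine to uric acid and, as xanthine oxidase, can reduce nitro compounds. Its probe set read 12.50, 12.43 and 12.57 in DMSO 6 h against 12.31, 12.19 and 11.83 in AA 6 h. It read 12.24, 12.41 and 12.51 in DMSO 24 h against 12.40, 12.47 and 12.32 in AA 24 h, and 12.76, 12.74 and 12.71 in DMSO 72 h against 12.38, 12.41 and 12.23 in AA 72 h. Xdh was thus lower in every AA array than in every DMSO array at 6 h and at 72 h, and the groups overlapped at 24 h. The log2 fold changes were -0.39 ± 0.10 (SE) at 6 h (adjusted p 0.00776, 1.31-fold lower), 0.01 at 24 h (0.992) and -0.40 at 72 h (0.0019, interval -0.60 to -0.20). In DMSO, Xdh rose by 0.35 from 24 h to 72 h (0.00776) and its difference from 6 h to 24 h was -0.11 (0.341). In AA it rose by 0.29 from 6 h to 24 h (0.0166), a call lost without AA 6 h replicate 3 (0.146, adjusted p 0.136) or AA 24 h replicate 2 (0.25, 0.0667) and with centred arrays (0.208, 0.0857), and stood at -0.06 from 24 h to 72 h (0.628). The difference at 6 h was -0.25 (adjusted p 0.0533) without AA 6 h replicate 3, the lowest array.

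CYP1B1 is the extrahepatic member of the CYP1 family, which oxidises polycyclic hydrocarbons and estradiol. At 6 h its probe set read 5.55, 5.18 and 5.27 in DMSO and 6.05, 6.16 and 5.93 in AA. The AA arrays were all higher, by 0.72 ± 0.21 (SE, interval 0.27 to 1.17), or 1.65-fold, with adjusted p 0.0205. This call did not pass when AA 6 h replicate 2, DMSO 6 h replicate 2 or DMSO 6 h replicate 3 was left out, with differences of 0.66, 0.64 and 0.69 and adjusted p of 0.0559, 0.0783 and 0.0607. At 24 h it read 3.39, 3.73 and 3.84 in DMSO and 4.02, 3.29 and 3.97 in AA, and at 72 h 4.11, 3.90 and 3.55 in DMSO and 4.23, 3.79 and 4.16 in AA. Groups overlapped at both later times, where the differences were 0.11 (0.917) and 0.21 (0.445). Most of these later values were near the floor. At 6 h, where the count of called genes was 900 without AA 6 h replicate 3 against 2211 with it, marker sums also differed between treatments. These sums add unlogged values, so they follow their highest genes. Those were Krt8 (mean 13.57) for epithelial, Cd14 (11.65) for immune and mainly Col3a1 (14.29) for fibroblast markers. The epithelial sum was 13.51 to 13.72 in DMSO and 14.01 to 14.27 in AA, the fibroblast sum 15.25 to 15.31 and 14.82 to 15.22 and the immune sum 11.48 to 11.82 and 11.95 to 12.01, while the proximal tubule sums (8.95 to 9.19 and 8.94 to 9.34) overlapped. Their part in the 6 h differences was not tested.

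The largest movement of Cyp1b1 was with time and occurred in both treatments. It fell by 1.68 from 6 h to 24 h in DMSO (adjusted p 1.86e-06) and by 2.29 in AA (7.43e-08, 4.88-fold), and since the 24 h groups lay under log2 4 the true sizes depend on the background model. From 24 h to 72 h the differences were 0.20 in DMSO (0.513) and 0.30 in AA (0.252).

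The other CYP1 genes stayed at the floor and were not tested. CYP1A1 oxidises polycyclic hydrocarbons and is the most inducible AhR target. Its probe set ranged from 2.25 to 2.97 over the 18 arrays, with group means of 2.67 ± 0.16 (SD) in DMSO 6 h, 2.88 ± 0.11 in AA 6 h, 2.60 ± 0.01 in DMSO 24 h, 2.48 ± 0.20 in AA 24 h, 2.64 ± 0.05 in DMSO 72 h and 2.84 ± 0.16 in AA 72 h. These differences lie within the part of the scale where background correction decides the value. CYP1A2, the liver enzyme of caffeine metabolism, ranged from 1.85 to 1.90. The RefSeq table places Cyp1a1 and Cyp1a2 beside each other with 0 genes between them.

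SULT1A1 transfers sulfate to phenols and to hydroxylated aromatic amines. Its probe set read 2.52, 2.50 and 2.50 in DMSO 6 h, 2.87, 2.49 and 2.50 in AA 6 h, 3.11, 3.28 and 2.96 in DMSO 24 h and 3.13, 2.89 and 2.89 in AA 24 h. At 72 h it read 2.61, 2.63 and 3.02 in DMSO and 2.51, 3.54 and 2.75 in AA. AA 72 h replicate 2 was the highest of the 18 arrays, AA and DMSO overlapped at each time, and all values were under log2 4.

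The uptake carriers showed no array above the floor. OAT1 and OAT3 exchange organic anions in blood for intracellular dicarboxylates at the basolateral membrane of the proximal tubule. Slc22a6 ranged from 2.59 to 2.67, and both probe sets of Slc22a8 from 2.04 to 2.09, over all 18 arrays. The range of each was under 0.1, and their highest values all came from DMSO 72 h replicate 1, the array whose own lowest value over all probe sets was the highest (0.947, against 0.916 on the array with the lowest). Slc22a6 and Slc22a8 likewise neighbour each other with 0 genes between them in the RefSeq table.

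The treatment effect changed between times for the 3 reductases. The effect of AA at 72 h minus that at 24 h was 2.47 ± 0.23 (SE) for Nqo1 (adjusted p 1.53e-07), 1.17 for Por (5.17e-05) and -0.41 for Xdh (0.026), where 32.4% of all genes were called and 29.6% of probe sets. For Cyp1b1 it was 0.10 (0.828). From 6 h to 24 h the effect changed by 0.25 for Nqo1 (0.559), -0.15 for Por (0.662), -0.61 for Cyp1b1 (0.267) and 0.40 for Xdh (0.114), none past limma's test, where 2.43% of all genes were, and 1 (Xdh) at an unadjusted p under 0.05. For Por's second probe set the change from 24 h to 72 h was 0.55 (0.112). The Xdh change did not pass without AA 24 h replicate 2, DMSO 24 h replicate 1, AA 72 h replicate 3 or DMSO 72 h replicate 1 (adjusted p from 0.0529 to 0.0768).

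**Figure D3:**
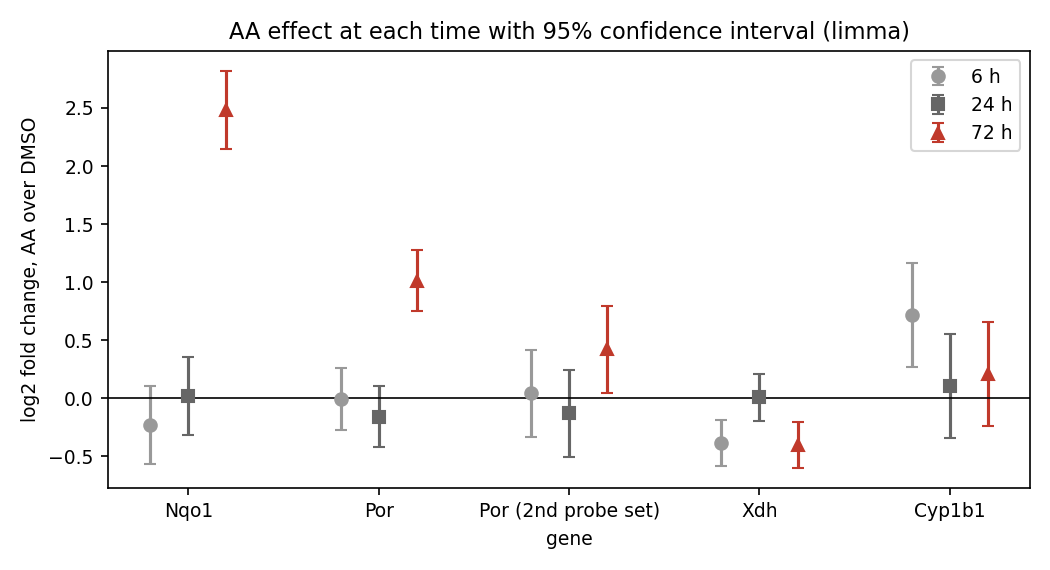
Log2 fold change of AA over DMSO (y axis) with 95% confidence interval at 6, 24 and 72 h for the 4 tested members and the second Por probe set (x axis). The 72 h interval of Nqo1 runs from 2.15 to 2.82 and that of Por from 0.75 to 1.28; the 24 h intervals all include 0.

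Members also changed with time in the solvent cultures. From 6 h to 24 h in DMSO, 2 of 4 members fell (Nqo1 and Cyp1b1) and 0 rose, where 58.7% of all genes were called. From 24 h to 72 h, 2 fell (Nqo1 and Por) and 1 rose (Xdh), where 34.3% were called. In AA, 2 fell (Nqo1 and Cyp1b1) and 1 rose (Xdh) from 6 h to 24 h, and 2 rose (Nqo1 and Por) and 0 fell from 24 h to 72 h, where 52.5% and 52.7% of all genes were called. The Xdh rise in AA lost its call under the settings given above. With 4 members tested, these shares are too coarse to be set against those of all genes. Marker sums moved with time too, some down and some up. In DMSO the fibroblast sum went from between 15.25 and 15.31 at 6 h to between 14.47 and 14.69 at 24 h. At 72 h it lay between 14.70 and 14.87. Between 24 h and 72 h the epithelial sum went from between 13.71 and 13.91 to between 12.59 and 12.81. The immune sum went from between 11.77 and 12.01 to between 11.13 and 11.32. The proximal tubule sum rose in DMSO, from between 8.95 and 9.19 at 6 h to between 9.35 and 9.62 at 24 h. At 72 h it lay between 9.67 and 9.84. The endothelial sum rose from between 5.23 and 5.41 to between 5.81 and 6.05, and then to between 6.42 and 6.64. These sums follow their highest genes, as said above, and their part in these changes was not tested. These comparisons share arrays with the treatment comparisons and are not independent of them.

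Marker levels also differed between AA and DMSO at 72 h, the time at which Nqo1 and Por were higher in AA. The summed level of the 17 proximal tubule markers was 9.67 to 9.84 in DMSO 72 h and 8.45 to 8.77 in AA 72 h, that of epithelial markers 12.59 to 12.81 and 13.17 to 13.37, that of fibroblast markers 14.70 to 14.87 and 14.36 to 14.61, and that of endothelial markers 6.42 to 6.64 and 4.99 to 5.25. Immune (11.13 to 11.32 and 11.23 to 11.34), loop and distal (5.58 to 5.63 and 5.57 to 5.60) and hepatocyte sums (4.64 to 4.68 and 4.62 to 4.65) overlapped. At 24 h the proximal tubule sum was 9.35 to 9.62 in DMSO and 9.04 to 9.25 in AA, and the other sums overlapped. Neither Nqo1 nor Por was called at that time. No loop and distal or hepatocyte marker had a mean over log2 4, and Tek was the only such endothelial marker. Each sum follows its highest genes, so the sums do not count cells of a type. At 6 h the mean array median was 4.06 in AA and 4.13 in DMSO (0.1 by a two-sided exact permutation test, the smallest p that 3 against 3 allows). The part of these in the differences was not tested, and in bulk RNA fewer cells of a type and less RNA per cell cannot be told apart.

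The members' profiles were compared with each other and with the other tested genes over the 18 arrays, as a description without a test, since groups and time are shared by all points. Between members, r was 0.71 for Nqo1 and Por, -0.61 for Nqo1 and Xdh, 0.45 for Nqo1 and Cyp1b1, -0.44 for Por and Xdh and for Cyp1b1 and Xdh, and -0.15 for Por and Cyp1b1. The genes most like Nqo1 were the amino acid carrier Slc1a4 (r 0.97), Srxn1, which repairs oxidised peroxiredoxins (0.959), and Cib2 (0.948). Srxn1 went from 8.01 in DMSO 72 h to 10.72 in AA 72 h. Those most like Por were Prkcsh (0.939), Rnf10 (0.936) and Igsf8 (0.916), those most like Cyp1b1 were Mylk3 (0.964), G3bp1 (0.955) and Arf4 (0.95), and those most like Xdh were Znrf3 (0.911), Rbm26 (0.897) and Simc1 (0.887).

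Genes of the same pathways were counted from lists written by function, with the median log2 fold change set beside that of all tested genes (0.01 at 6 h, -0.01 at 24 h and 0.05 at 72 h). Of all genes, 24.5% were called at 6 h, 2.09% at 24 h and 47.2% at 72 h, and each list count is to be read beside these shares. Of 36 NRF2 partners of Nqo1 written, 31 were on the array and 26 tested. At 72 h, 22 were higher in AA, 2 lower and 2 did not pass, with a median of 0.99. Osgin1, an oxidative stress growth inhibitor, was higher by 4.34, from 3.36 in DMSO, near the floor. Hmox1, which breaks down heme, went from 4.04 to 7.45 (3.41, adjusted p 2.85e-09), the glutathione transferase Gsta1 was higher by 3.19 and Srxn1 by 2.71. The lower ones were glutathione reductase Gsr (-0.74, adjusted p 0.00246) and the exporter Abcc4 (-0.44, 0.0192), and 1 of these calls was lost without AA 72 h replicate 2, AA 72 h replicate 3, DMSO 72 h replicate 1 or DMSO 72 h replicate 2. Nfe2l2, which encodes NRF2, differed by 0.02 (0.836) and Abcc3 by -0.05 (0.824); Gsr, Abcc4, Nfe2l2 and Abcc3 were named after their values were seen. At 24 h, 1 was higher (the epoxide hydrolase Ephx1, 0.51), with 6 of the 26 at an unadjusted limma p under 0.05 and a median of 0.12. At 6 h 4 were higher and 2 lower. That 6 h count was 0 higher and 1 lower without AA 6 h replicate 3, and 8 higher and 1 lower with arrays centred on their median. Txnrd1, Gsr, Hmox1 and Nfe2l2 are also members of another list. In DMSO from 24 h to 72 h, 14 of the 26 fell, 4 rose and 8 did not pass, with a median of -0.32, where 34.3% of all genes were called.

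Other enzymes that reduce nitro groups or quinones did not share one direction at 72 h. Of 15 tested, 4 were higher, 4 lower and 7 did not pass, with a median of 0.00, where 47.2% of all genes were called, so the share called was near that of all genes. Without AA 72 h replicate 1, 6 were higher and 4 lower. The higher ones were prostaglandin synthase Ptgs2 (1.48, adjusted p 7.48e-06), thioredoxin reductase Txnrd1 (1.37, 4.66e-09), the carbonyl reductase Cbr3 (1.32, 4e-06) and the aldose reductase Akr1b1 (0.75, 3.42e-07). The lower ones, named after their values were seen, were Cyb5a (-0.75), Gsr (-0.74), Cbr4 (-0.51) and Cyb5r4 (-0.26). At 6 h, where 24.5% of all genes were called, 6 of 15 were higher and 0 lower, led by Ptgs2 (0.92), Dhrs4 (0.68), Cbr4 (0.51) and Cbr1 (0.28). Without AA 6 h replicate 3, that count was 3.

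In AA against DMSO, the AhR pathway, tested in 7 genes, had 0 called by limma at 72 h and 0 at 24 h, and 0 at an unadjusted p under 0.05 at both times, with a 72 h median of -0.10. The 7 were Ahr, Arnt, Tiparp, Aldh3a1, Nfe2l2, Ptges3 and Hsp90ab1. Aldh3a1 had means under log2 4 at 24 h (2.87 in DMSO and 3.06 in AA) and in AA 72 h (2.55). Arnt was under it at 72 h (3.47 in DMSO and 3.34 in AA). Near the floor a difference could be missed, and the list holds the receptor itself and Nfe2l2 beside target genes. The count is therefore no measure of AhR activity. At 6 h 1 was lower, Tiparp, an AhR-induced ADP-ribosyl transferase (-0.58, adjusted p 0.0305), and 0 were without AA 6 h replicate 3. With time, 5 of the 7 fell from 6 h to 24 h in DMSO and 3 in AA, and 0 rose. Of all genes, 58.7% and 52.5% were called there. Aldh3a1 moved most, by -2.92 in DMSO and -3.07 in AA, to means under log2 4. From 24 h to 72 h, 2 fell in DMSO and 4 in AA, and 0 rose. Of all genes, 34.3% and 52.7% were called there. The receptor Ahr fell by 1.51 in DMSO from 24 h to 72 h (adjusted p 0.00516) and by 1.95 in AA (0.00033). Arnt moved by -1.2 in DMSO and -1.03 in AA over the same step.

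Of 65 other P450 genes written, 50 were on the array and 6 were tested, and the other 44 were under the filter, among them the common liver families. At 72 h 3 of the 6 were higher (Cyp2u1 0.58, Cyp51 0.41 and Cyp20a1 0.31), 0 lower and 3 did not pass, with a median of 0.36. Of all genes, 47.2% were called at that time and 24.5% at 6 h. At 6 h 3 were higher (Cyp2s1 0.89, the retinoic acid hydroxylase Cyp26b1 0.88 and Cyp20a1 0.28), and 1 without AA 6 h replicate 3. Of 17 tested electron partners and heme genes, 6 were higher at 72 h, 2 lower and 9 did not pass, with a median of 0.14. The share called was near the 47.2% of all genes. Without AA 72 h replicate 3 the counts were 3 higher and 1 lower, and without AA 72 h replicate 2 they were 5 and 3. In each of the other leave-outs, and with centred arrays, 1 was lower. Hmox1, which breaks down heme, led the higher ones, and Sqle, which takes electrons from POR in sterol synthesis, was higher by 0.75. Cyb5a, an electron donor to some P450s, was lower by 0.75. Cyb5a, Cyb5b and Cyb5r3 are also in the list of nitro- and quinone-reducing enzymes. At 6 h the counts were 2 higher (Ppox 0.52 and Alad 0.38) and 1 lower (Cpox -0.48), all enzymes of heme synthesis. Without AA 6 h replicate 3, 0 were higher and 1 lower.

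Around SULT1A1, 22 conjugation genes were on the array and 11 were tested. At 72 h 4 were higher, 2 lower and 5 did not pass, with a median of 0.22, and 1 was lower without AA 72 h replicate 1, DMSO 72 h replicate 1 or DMSO 72 h replicate 3. The shares of all genes called were 47.2% at 72 h and 24.5% at 6 h. The steroid sulfatase Sts was higher by 1.16 (adjusted p 1.76e-05), the N-acetyltransferases Nat2 by 0.87 and Nat1 by 0.75, and the thiopurine methyltransferase Tpmt was lower by 0.62. At 6 h Tpmt (-0.69) and Slc35b3, which brings the sulfate donor into the Golgi, (-0.40) were lower, and 0 were higher. Without AA 6 h replicate 3, 0 were called.

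The molybdenum cofactor and purine genes around Xdh had 6 higher, 3 lower and 5 not past at 72 h among 14 tested, with a median of 0.25. Over all genes, 47.2% were called at 72 h and 24.5% at 6 h. Gphn, which inserts molybdenum into the cofactor and is also an anchor of inhibitory synapses, was lower by 3.67 (5.09 against 8.76, adjusted p 3.7e-12). Adk, which phosphorylates adenosine, was lower by 2.16 (5.47e-12), Ampd3, an AMP deaminase, by 1.88 (0.000135), and Hprt1, the purine salvage enzyme, was higher by 0.99 (2.05e-10). Mocos, which adds the sulfur that makes XDH active, was higher by 0.53 (0.00368), named after its value was seen. At 6 h 1 was higher (Ampd2, 0.42) and 0 lower, and without AA 6 h replicate 3 there were 0.

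Few other carriers of the Slc22, Slco and dicarboxylate families were above the floor. These families hold carriers of organic cations, such as Slc22a2, beside those of organic anions. Of 43 written, 33 were on the array and 4 were tested. For these and the regulators below, 47.2% of all genes were called at 72 h and 24.5% at 6 h. At 72 h 2 were higher, the carnitine carrier Slc22a5 (0.64, adjusted p 7.43e-05) and Slc22a17 (0.44, 0.0437), and 1 was lower, Slco3a1 (-1.29, 5.41e-06), with 1 not past the test and a median of 0.25. The higher count was 1 without AA 72 h replicate 2, AA 72 h replicate 3, DMSO 72 h replicate 1 or DMSO 72 h replicate 2. At 6 h 1 was lower (Slc22a17, -0.65, adjusted p 0.0121). Of 7 tested regulators of the organic anion transporter genes or proteins, 1 was higher at 72 h (Bcl6, 0.40), 2 lower and 4 not past, with a median of 0.01. The lower ones were Nedd4l, a ubiquitin ligase (-1.84, 3.18e-09), and Prkca, a protein kinase (-1.29, 6.96e-06). Bcl6 was not called without AA 72 h replicate 2, and 3 were lower without AA 72 h replicate 1. Hnf4a, Ppargc1a and Pdzk1, a transcription factor, a coactivator and a scaffold of these carriers in kidney, were under the filter. At 6 h 1 regulator was lower (Bcl6, -0.44, 0.0118). With arrays centred on their median, the 6 h counts of higher genes were 4 for the electron partners, 4 for the P450s, 3 for the purine genes, 7 for the nitro- and quinone-reducing enzymes, 1 for the AhR pathway and 1 for the regulators. Without AA 6 h replicate 3, neither Slc22a17 nor Bcl6 was called. At 24 h limma called 0 genes of each of these lists other than the NRF2 list. At an unadjusted p under 0.05 the 24 h counts were 2 for the carriers, 2 for the electron partners, 1 each for the nitro- and quinone-reducing enzymes, the P450s and the purine genes, and 0 for the conjugation genes, the AhR pathway and the regulators.

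**Figure D4:**
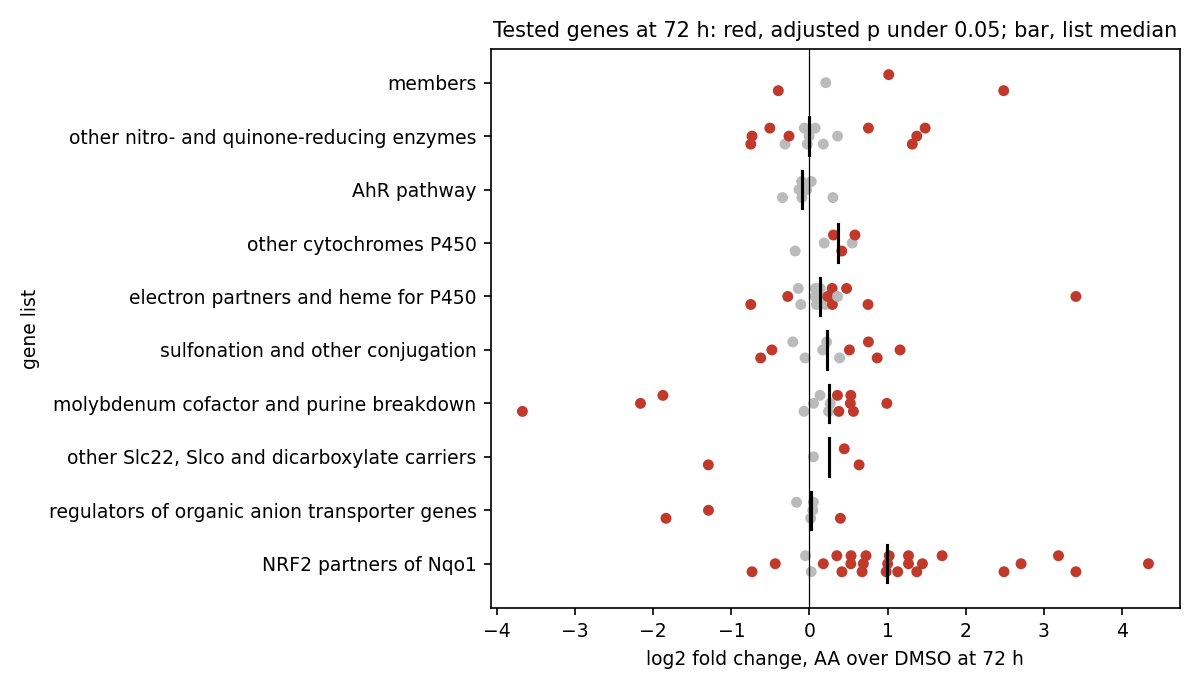
Log2 fold change of AA over DMSO at 72 h (x axis) of each tested gene, by list (y axis); red points passed adjusted p 0.05, grey points did not, and the black bar is the list median. The median of the NRF2 partners stands at 0.99 and that of the other nitro- and quinone-reducing enzymes at 0.00.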

How the data were processed

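Expression was measured on 18 arrays, 1 per sample. The authors deposited a log2 value for every probe set on each array, produced by GCRMA per the submitters' processing notes. The GCRMA version and options, and any build, are not given here. Of 31099 probe sets, 57 were controls, 20826 had 1 platform gene symbol, 436 several and 9780 none, and of those with 1, 20758 were matched by gene number to RefSeq names (GRCr8). Of several probe sets of a gene, the one with the highest mean stood for it. Testing required log2 4 on 3 or more arrays, met by 9015 of 14217 genes and by 16253 probe sets. R 4.3.3 and limma 3.58.1 fitted 6 group means to all 18 arrays with an intensity trend (12 residual and 7.27 prior degrees of freedom). Precision is limited by the number of arrays, with a median group SD of 0.11 over tested genes. The steps were tested on simulated data.

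The members and gene lists were chosen with earlier results of these data known, and the comparisons between times within AA were added after the values were seen. Named list genes were the 4 called ones with the largest difference in each comparison, and for each tested member the 3 genes with the highest correlation. Alternatives were another scaling, filter, probe-set rule or variance model, single time points, a replicate block and each array left out. Same-numbered AA and DMSO arrays of a time did not deviate together (r between -0.16 and 0.16), so they were not treated as pairs. Such deviations were not compared across times.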

Additional observations from a re-analysis of the deposited data

Results flagged for a closer look

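For 3 members the effect of AA differed between 24 h and 72 h by limma's test of the difference itself. The effect at 72 h minus that at 24 h was 2.47 ± 0.23 (SE) on the log2 scale for Nqo1 (adjusted p 1.53e-07), with AA above DMSO in 3 of 3 arrays at 72 h and overlapping groups at 24 h. For Por it was 1.17 ± 0.18 (adjusted p 5.17e-05), again with 3 of 3 AA arrays above DMSO at 72 h, and the second Por probe set gave 0.55 (adjusted p 0.112, not past). For Xdh it was -0.41 (adjusted p 0.026), with 3 of 3 AA arrays below DMSO at 72 h.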

How the results depend on the processing

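Of 564 values of tested members under other settings, 530 kept their direction and side of the threshold, 18 changed sign, 15 lost a call and 1 gained one. Nqo1 and Por at 72 h kept their calls in all settings run. In these, Por was read from its probe set with the higher mean or from the mean of its probe sets. Its second probe set alone did not pass limma's test at 72 h (0.42, adjusted p 0.0637). Counts of all genes moved as follows. Without the filter on low values, 112 genes were called at 24 h and 78 for the change from 6 h to 24 h, which was 138 without the intensity trend. With every probe set tested, 3482 were called at 6 h, 7236 at 72 h, 4804 for the change from 24 h to 72 h, 8715 and 5720 for DMSO at 24 h against 6 h and 72 h against 24 h, and 8043 and 8631 for the same in AA. With only the arrays of 6 h, 579 were called. Leaving out 1 array gave 900 to 2537 at 6 h (900 without AA 6 h replicate 3, 1414 without DMSO 6 h replicate 2), 100 to 203 at 24 h (100 to 106 without AA replicate 1 or 2 or DMSO replicate 1 or 3) and 22 to 458 for the change from 6 h to 24 h, which moved past 1.5 times under 11 of 12 arrays. The sign changed only in differences that had not passed: Por at 6 h was 0.074 with centred arrays, 0.006 with quantile normalization and 0.02 with the mean of probe sets, and -0.108 to 0.114 leaving out 1 array, and in AA from 6 h to 24 h it was -0.045 with centred arrays and -0.085 to 0.137 leaving out 1. Ranges with 1 array left out were -0.125 to 0.208 for Nqo1, -0.024 to 0.343 for Cyp1b1 and -0.064 to 0.069 for Xdh at 24 h, and -0.134 to 0.237 for the Cyp1b1 change from 24 h to 72 h. Xdh lost calls at 6 h with only that time's arrays (adjusted p 0.07), in AA from 6 h to 24 h with centred arrays (0.0857) and without AA 6 h replicate 3 (0.136) or AA 24 h replicate 2 (0.0667), in DMSO from 24 h to 72 h without DMSO 24 h replicate 1 (0.0504), and for the change from 24 h to 72 h without the filter (0.0547). Without AA 6 h replicate 1 its change from 6 h to 24 h passed (0.50, adjusted p 0.0365). The replicate block gave 2265 calls at 6 h and a Nqo1 difference of 2.49 at 72 h, and changed no call of a member. The causes were not tested.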
